A study of Mus musculus with 8 samples.

Results

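The genes described here are 41 genes of S phase and DNA replication, chosen by name from the 12843 genes of the deposited table, all of which are listed there. RNA was sequenced from the lateral ganglionic eminence (LGE), the ventral forebrain zone that forms the striatum, of mouse embryos at stage E12.5. Of 8 libraries, 4 carry the label wild type and 4 a null label for Gsx2, which encodes a homeodomain factor that patterns progenitors there. Embryos of both groups came from crosses between carriers of the Gsx2RA allele and carriers of the Gsx2EGFP allele, so the null genotype held Gsx2RA together with Gsx2EGFP, and no treatment is named for either group. The series title names a germline knock-out, so the loss of Gsx2 was not limited to a cell type or driven by a Cre line. Whether each library holds the LGE of a single embryo is not stated in the labels, so the p-values speak only of the spread among these libraries.

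DNA replication begins in G1, when the origin recognition complex, Cdc6 and Cdt1 load the ring-shaped Mcm2 to Mcm7 helicase onto DNA, a step known as licensing. In S phase, kinases and the factors Cdc45 and GINS switch the helicase on, and polymerases, a sliding clamp and its loaders copy both strands while nucleotide synthesis and histone supply keep pace. Many of these genes are transcribed in a wave at the entry to S phase under transcription factors of the E2F family. In the embryonic LGE the cells that pass through S phase are radial glia and intermediate progenitors near the ventricle, whereas neurons in the mantle have left the cycle.

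Levels are the authors' RPKM, in which the reads of a gene are divided by its length in kilobases and by library size. In each list of 4 values, the wild-type libraries are numbered 1, 2, 7 and 8 and the null-labelled ones 5, 6, 11 and 12 in the table. Means are given ± SD with n = 4 in each genotype. Fold changes, given ± SE, are the null-labelled minus the wild-type mean of log2(RPKM + 1), and adjusted p-values are from limma, two-sided, with Benjamini-Hochberg adjustment over 11395 tested genes. A gene is said to have fallen or risen where its adjusted p was under 0.05. Each library held 16031458 to 18019214 reads in the listed genes, and the member with the fewest reads in any library, Dscc1, had 217 there. Gsx2 itself was listed at 22.1, 21.4, 26.0 and 24.6 RPKM in wild type and 50.04, 49.1, 57.6 and 64.2 RPKM under the null label. How much of the Gsx2 transcript each allele keeps is not stated in the labels, so this level does not check the labels. LGE identity genes were present in the wild-type libraries, with Dlx1 at 173 ± 11.3 and Dlx2 at 137 ± 19.7 RPKM.

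E2F-type sequences stood in most of the member promoters that could be read. Promoter windows of 300 bases, from 250 before to 50 after a start site, were taken from RefSeq (build GRCm38.p6) and found for 31 of the 41 members, with 35 windows because 4 of those genes have several starts. Both strands were searched for 4 spellings of the E2F type of site: TTCCCGC, next TTGGCGC, then the spelling TTCGCGC and lastly TTGCCGC. At least 1 match lay in 25 of 35 member promoters (71.4%). The share was 44.6% in 121 promoters of other replication genes, 21.6% in 51 promoters of G2 and mitosis genes, 16.8% in 12330 promoters of all genes of the table and 9.57% in all 32851 promoters. With only TTCCCGC and TTGGCGC, the shares were 54.3% of member promoters and 12.1% of promoters of the table's genes. CCAAT, the core of the NF-Y site, lay in 68.6% of member promoters, 74.5% of G2 and mitosis promoters and 37.7% of those of the table. TTTGAA, the core of the element known as CHR that marks many genes of G2 and mitosis, lay in 17.1% of member promoters, 66.7% of G2 and mitosis promoters and 11.4% of those of the table. Of 40 E2F-type matches in members, 4 overlapped a CCAAT or TTTGAA match. Median GC content was 58.3% in member promoters and 61.3% in those of the table. A match describes letters in a window and is not a measured binding site.

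**Figure D1:**
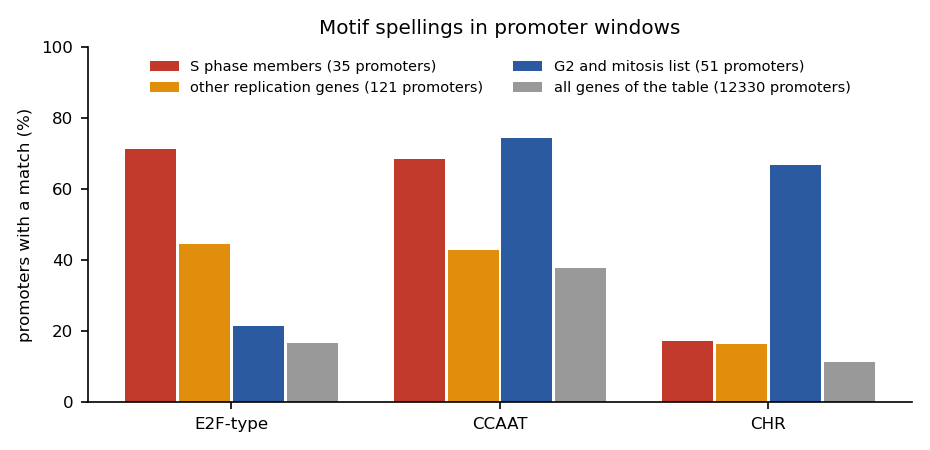
Share of promoter windows (percent, y axis) holding an E2F-type, CCAAT or CHR match, for members, other replication genes, G2 and mitosis genes and all genes of the table. The E2F-type share is 71.4% in members and 21.6% in G2 and mitosis genes, whereas the CHR share is 17.1% in members and 66.7% in G2 and mitosis genes.

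The windows below, 5′ to 3′ on the gene's strand, belong to Cdca7, Clspn, Rad51ap1, Blm and E2f8, the 5 members with the smallest adjusted p whose window holds an E2F-type match. Mcm6 is added for its 5 matches, a choice made after they were counted. Capitals mark the E2F-type matches, which read GCGCGAA or GCGGGAA where they lie on the opposite strand. The Mcm6 window, chr1:128359656-128359955 on the minus strand, holds 4 of its matches as pairs that overlap on opposite strands, the first beginning 109 and 46 bases before the start site.
Mcm6: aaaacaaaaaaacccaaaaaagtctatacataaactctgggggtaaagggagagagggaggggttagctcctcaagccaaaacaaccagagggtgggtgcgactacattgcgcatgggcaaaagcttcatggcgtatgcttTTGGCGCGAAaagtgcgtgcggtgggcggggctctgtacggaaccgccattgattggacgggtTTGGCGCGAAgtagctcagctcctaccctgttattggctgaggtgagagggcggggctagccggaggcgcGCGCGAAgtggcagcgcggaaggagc
The Cdca7 window is chr2:72475969-72476268 on the plus strand, with its match beginning 71 bases before the start site.
Cdca7: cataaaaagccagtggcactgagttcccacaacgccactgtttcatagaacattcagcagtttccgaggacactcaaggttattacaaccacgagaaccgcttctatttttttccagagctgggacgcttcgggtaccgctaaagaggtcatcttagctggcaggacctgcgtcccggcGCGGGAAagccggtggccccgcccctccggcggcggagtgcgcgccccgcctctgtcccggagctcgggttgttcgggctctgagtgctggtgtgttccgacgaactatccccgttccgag
The Clspn window is chr4:126556730-126557029 on the plus strand, with its match at base 21 counted from the start site.
Clspn: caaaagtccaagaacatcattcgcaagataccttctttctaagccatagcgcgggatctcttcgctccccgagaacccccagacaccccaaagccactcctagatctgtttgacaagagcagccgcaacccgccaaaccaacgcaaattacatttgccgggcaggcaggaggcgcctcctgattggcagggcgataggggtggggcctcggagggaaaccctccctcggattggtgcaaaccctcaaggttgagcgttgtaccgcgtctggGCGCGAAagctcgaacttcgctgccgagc
The Rad51ap1 window is chr6:126939538-126939837 on the minus strand, with its match at base 12 counted from the start site.
Rad51ap1: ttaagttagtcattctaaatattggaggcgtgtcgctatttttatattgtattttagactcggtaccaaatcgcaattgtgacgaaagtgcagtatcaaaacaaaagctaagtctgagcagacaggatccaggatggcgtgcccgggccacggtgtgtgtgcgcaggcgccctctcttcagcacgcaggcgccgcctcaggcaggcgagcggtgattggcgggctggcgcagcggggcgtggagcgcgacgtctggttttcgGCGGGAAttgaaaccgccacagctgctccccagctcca
The Blm window is chr7:80534949-80535248 on the minus strand, with its match beginning 142 bases before the start site.
Blm: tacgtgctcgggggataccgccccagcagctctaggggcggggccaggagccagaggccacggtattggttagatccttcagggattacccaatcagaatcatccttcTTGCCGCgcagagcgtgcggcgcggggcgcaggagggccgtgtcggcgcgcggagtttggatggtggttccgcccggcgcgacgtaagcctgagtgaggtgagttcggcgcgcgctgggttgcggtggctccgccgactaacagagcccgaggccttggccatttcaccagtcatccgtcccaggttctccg
The E2f8 window is chr7:48881547-48881846 on the minus strand, with its match beginning 111 bases before the start site.
E2f8: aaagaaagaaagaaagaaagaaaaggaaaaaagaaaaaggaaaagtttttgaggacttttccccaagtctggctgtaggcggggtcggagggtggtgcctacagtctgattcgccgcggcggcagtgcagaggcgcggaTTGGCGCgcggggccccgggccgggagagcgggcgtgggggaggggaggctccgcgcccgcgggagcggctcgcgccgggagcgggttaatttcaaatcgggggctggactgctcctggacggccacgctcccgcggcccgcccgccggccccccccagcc
The matches differ in spelling and in distance from the start site. Apart from Mcm6, these genes were picked by adjusted p, so their lower RNA levels are not a result about the matches.

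Of the 41 members, 40 fell, 0 rose and 1, Rfc2, did not pass, in a comparison in which 14.6% of all genes tested were called lower and 13.8% higher. All 41 fold changes were below 0 and 0 members rose at an unadjusted p under 0.05, and limma voom on recovered reads also called 40 lower and 0 higher, with 14.8% and 14.3% of all genes called lower and higher by it. All 41 passed the filter on low values. In 38 members every null-labelled library lay below every wild-type library, an order found in 16.4% of all genes tested. The exceptions were Gins2, Ubr7 and Rfc2. The median log2 fold change was -0.39 over the members and -0.01 over all genes tested. Member values ran from -1.24 for Cdca7 to -0.16 for Rfc2, and apart from Cdca7 they lay between -0.54 and -0.16. In the authors' deposited table, 40 of the 41 had an FDR under 0.05 and were lower in the null-labelled libraries, against 12.8% of its genes. Because this is bulk tissue, fewer cells in S phase and less of these RNAs per cell cannot be told apart.

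**Figure D2:**
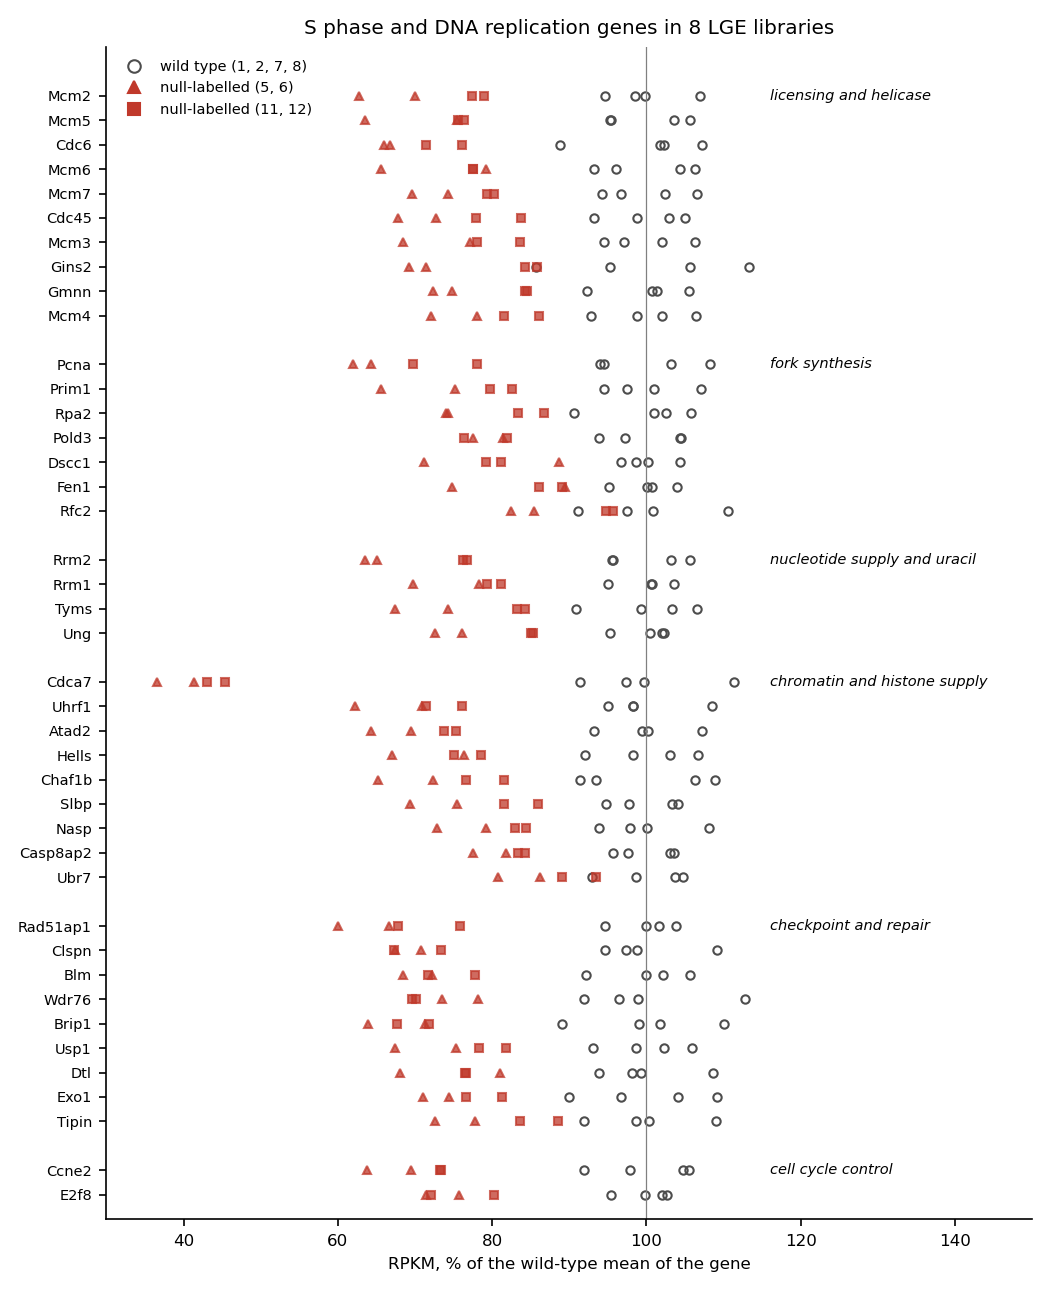
RPKM of each of the 41 members in each of 8 libraries (x axis, percent of the gene's wild-type mean), grouped by role; open circles are wild type, triangles null-labelled libraries 5 and 6, squares null-labelled libraries 11 and 12. Cdca7 stands apart at a null-labelled mean of 41.6%, and the ranges of the genotypes overlap in Gins2, Ubr7 and Rfc2.

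Licensing and helicase genes fell throughout, 10 of 10 members with a median log2 fold change of -0.39. The 6 subunits of the Mcm helicase moved by like amounts. Mcm2 (chr6:88883474-88898780, minus strand, GRCm38, GENCODE M21) was at 77.2, 74.1, 83.8 and 78.2 RPKM in the wild-type and 49.2, 54.8, 60.6 and 61.8 in the null-labelled libraries. Its mean went from 78.3 ± 4.03 to 56.6 ± 5.82 (log2 fold change -0.47 ± 0.07, adjusted p = 0.00138). Mcm3 had 76.7, 72.9, 79.9 and 71.0 RPKM in wild type and 51.4, 57.9, 58.6 and 62.8 in the null-labelled libraries (-0.38 ± 0.07, adjusted p = 0.00219). In both subunits the groups stood clear of each other, and library 5 was the lowest of all 8. Mcm4 was at 56.3, 54.5, 58.8 and 51.2 RPKM in wild type and 39.8, 43.1, 47.6 and 45.0 RPKM under the null label (-0.33 ± 0.06, adjusted p = 0.00397), the smallest fall of the subunits on this scale. Mcm4 did not pass in libraries 7, 8, 11 and 12 alone (adjusted p = 0.0553). Mcm5 read 65.0, 59.8, 66.3 and 59.9 RPKM in wild type and 39.9, 47.3, 47.5 and 47.9 in the null-labelled libraries (-0.45 ± 0.07, adjusted p = 0.000927). Mcm6 gave 65.3, 59.0, 64.1 and 57.2 RPKM in wild type and 40.3, 48.6, 47.7 and 47.6 RPKM under the null label (-0.41 ± 0.07, adjusted p = 0.00195). In Mcm5 and Mcm6 the other null-labelled libraries lay close together, and library 5 lay well below them. For Mcm7 the values were 88.6, 78.4, 85.1 and 80.4 RPKM in wild type and 57.8, 61.8, 66.8 and 65.9 RPKM under the null label (-0.39 ± 0.06, adjusted p = 0.00112), again without overlap.

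The summed level of the 6 helicase subunits went from 416 ± 20.6 to 313 ± 24.3 RPKM, which is 75.2% of wild type. Mcm2 made up 17.99% to 19.6% of that sum in wild type and 17.5% to 18.7% of it under the null label. Mcm4, the least abundant per length, made up 12.9% to 13.7% and 13.6% to 14.5%. Mcm5 made up 15.00% to 15.2% and 14.3% to 15.1%. Mcm7 made up 19.4% to 20.7% and 19.7% to 20.8%. For each of the 6 subunits the ranges of its share overlapped between genotypes, although 3 of 4 null-labelled libraries lay above every wild-type share for Mcm4 and 3 of 4 below every wild-type share for Mcm5; the shares were not tested.

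The licensing factors around the helicase followed. Cdc6, the loader that brings the Mcm ring to origins, was at 9.38, 8.15, 9.83 and 9.33 RPKM in wild type and 6.06, 6.12, 6.98 and 6.56 in the null-labelled libraries (-0.45 ± 0.07, adjusted p = 0.000828). Its groups did not overlap, although wild-type library 2 lay below the other wild-type libraries. Gmnn encodes geminin, which binds Cdt1 and blocks relicensing, and its mean fell from 40.1 ± 2.24 to 31.6 ± 2.53 RPKM (-0.33 ± 0.06, adjusted p = 0.00383). The loader Cdc6 and the inhibitor of loading thus had lower RNA levels together. Cdc45, part of the active helicase, fell from 21.5 ± 1.12 to 16.2 ± 1.47 RPKM (-0.39 ± 0.07, adjusted p = 0.00204). Gins2, a subunit of the GINS complex that joins it, was at 33.1, 25.1, 30.9 and 27.9 RPKM in wild type and 20.9, 20.2, 25.1 and 24.6 RPKM under the null label (-0.35 ± 0.10, adjusted p = 0.0207). Its highest null-labelled value reached the lowest wild-type value, and it lost the call in 5 of 20 alternative fits (adjusted p from 0.0522 to 0.0589), among them those without library 1, 5, 6 or 7. Gins2 shares 2758 exon bases with Gse1 on the opposite strand, which fell from 33.9 ± 3.20 to 25.3 ± 0.623 RPKM (-0.40 ± 0.06, adjusted p = 0.00132). Whether counting used strand is not stated, so reads of overlapping genes on opposite strands cannot be told apart.

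At the fork, 6 of 7 members fell, with a median log2 fold change of -0.32, with Pcna at the most and Rfc2 at the least negative end. Pcna (chr2:132249162-132253314, minus strand), the sliding clamp that tethers polymerases, was at 90.1, 78.6, 85.8 and 78.2 RPKM in wild type and 51.6, 53.5, 64.9 and 58.0 in the null-labelled libraries. Its mean went from 83.2 ± 5.77 to 57.0 ± 5.90 RPKM (-0.54 ± 0.08, adjusted p = 0.000747), with a clear gap between the genotypes. Rfc2 (chr5:134581366-134601805, plus strand), a subunit of the clamp loader, was at 52.9, 43.6, 48.2 and 46.6 RPKM in wild type and 39.4, 40.9, 45.3 and 45.8 RPKM under the null label. Its mean was 47.9 ± 3.87 in wild type and 42.9 ± 3.18 in the null-labelled libraries (-0.16 ± 0.07, adjusted p = 0.128). Null-labelled libraries 11 and 12 lay inside the wild-type range, and Rfc2 passed in 1 alternative, with RPKM sums made equal across libraries (adjusted p = 0.0417). The difference in response between Pcna and Rfc2 was not tested. Exons of Rfc2 overlap those of Lat2 on the opposite strand, whose level was low, 1.46 and 1.71 RPKM.

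The other fork genes fell too, with log2 fold changes from -0.39 to -0.23. Prim1, the catalytic subunit of primase, went from 48.7 ± 2.64 to 36.9 ± 3.61 RPKM (-0.39 ± 0.07, adjusted p = 0.00288). Pold3, an accessory subunit of polymerase delta, went from 26.6 ± 1.40 to 21.1 ± 0.741 RPKM (-0.32 ± 0.05, adjusted p = 0.00118). Primase and polymerase RNAs thus moved the same way as the clamp. Rpa2, which coats exposed DNA strands, fell from 36.9 to 29.4 RPKM (-0.32 ± 0.07, adjusted p = 0.00583). Dscc1, part of a clamp loader used in cohesion, fell from 10.6 to 8.47 RPKM (-0.29 ± 0.06, adjusted p = 0.00622) and did not pass in libraries 1, 2, 5 and 6 alone (adjusted p = 0.124). Fen1, the flap nuclease that trims lagging-strand fragments, fell from 34.5 ± 1.25 to 29.3 ± 2.37 RPKM (-0.23 ± 0.06, adjusted p = 0.0175). Fen1 lost the call without library 7 (adjusted p = 0.0521) and in libraries 1, 2, 5 and 6 alone (adjusted p = 0.114). It shares 1909 of its 2422 exon bases with the antisense gene Gm10143, which is not listed and has no level here. With Tmem258, also on the opposite strand and at 49.8 and 49.1 RPKM, it shares 130.

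The 4 members of nucleotide supply and uracil removal all fell, with a median of -0.36. Rrm2, the regulated subunit of ribonucleotide reductase, was at 147, 133, 144 and 133 RPKM in wild type and 88.4, 90.6, 106 and 107 in the null-labelled libraries. Its mean went from 139 ± 7.27 to 98.0 ± 9.88 RPKM (-0.51 ± 0.07, adjusted p = 0.000874). All null-labelled libraries stood below the wild-type ones, with 5 and 6 lower than 11 and 12. Rrm1, the large subunit of the same enzyme, fell from 91.8 ± 3.28 to 70.8 ± 4.67 RPKM (-0.37 ± 0.06, adjusted p = 0.00111). Tyms, thymidylate synthase, fell from 16.7 to 12.9 RPKM (-0.35 ± 0.08, adjusted p = 0.00657). Ung, the glycosylase that removes uracil from DNA, fell from 16.9 to 13.5 RPKM (-0.31 ± 0.06, adjusted p = 0.00355). The genes that make deoxynucleotides and the gene that removes misplaced uracil therefore had lower levels in the same libraries.

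Chromatin and histone supply held the largest fall of all members. The 9 members of this role all fell, with a median of -0.42. Cdca7 (chr2:72476159-72486893, plus strand), a zinc finger protein that works with the remodeller Hells in chromatin and DNA methylation, was at 74.9, 70.4, 85.7 and 76.8 RPKM in wild type. In the null-labelled libraries it was at 28.1, 31.9, 33.1 and 34.9 RPKM. The mean fell from 76.9 ± 6.44 to 32.0 ± 2.88 RPKM, to 41.6% of wild type (-1.24 ± 0.08, adjusted p = 5.38e-06). The gap between the groups was wider than the spread within either, and by fold change Cdca7 ranked 55 from the most negative of all genes tested. Its partner Hells had a fold change nearer to 0, from 45.3 ± 2.88 to 33.7 ± 2.27 RPKM (-0.42 ± 0.06, adjusted p = 0.000970); the difference between these fold changes was not tested. Uhrf1, which reads hemimethylated DNA behind the fork and recruits the maintenance methyltransferase, was at 60.3, 58.3, 66.6 and 60.4 RPKM in wild type and 38.2, 43.5, 43.9 and 46.7 RPKM under the null label (-0.50 ± 0.07, adjusted p = 0.000508). Atad2, a bromodomain ATPase, was at 30.4, 32.4, 35.0 and 32.7 RPKM in wild type and 20.96, 22.7, 24.6 and 24.1 RPKM under the null label (-0.48 ± 0.06, adjusted p = 0.000382). In Uhrf1 and Atad2 the lowest wild-type library stood well above the highest null-labelled one.

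Histone supply genes followed. Nasp, a histone chaperone and the member with the highest level per length, went from 188 ± 11.4 to 151 ± 9.72 RPKM (-0.32 ± 0.06, adjusted p = 0.00464). Chaf1b, a subunit of the assembly factor CAF-1, went from 24.4 to 18.03 RPKM (-0.42 ± 0.08, adjusted p = 0.00339). Chaperone and assembly factor thus fell together. Slbp, which binds the stem-loop that ends replication-dependent histone mRNAs, went from 38.2 to 29.8 RPKM (-0.35 ± 0.07, adjusted p = 0.00359). Casp8ap2, which takes part in the processing of those mRNAs, went from 19.7 to 16.1 RPKM (-0.28 ± 0.05, adjusted p = 0.00191). Histone mRNAs of this class lack a poly(A) tail and are poorly captured in libraries of polyadenylated RNA, so these are values of their processing factors alone. Ubr7, a protein of the UBR ubiquitin ligase family, was at 32.1, 28.7, 32.4 and 30.5 RPKM in wild type and 25.0, 26.7, 28.9 and 27.6 RPKM under the null label (-0.19 ± 0.06, adjusted p = 0.0329). Null-labelled library 11 reached above wild-type library 2, and Ubr7 lost the call in 8 of 20 alternative fits (adjusted p from 0.0532 to 0.0917), among them those without library 1, 5, 6, 7, 8 or 12.

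All 9 checkpoint and repair members fell, with a median of -0.40. Clspn encodes claspin, the adaptor through which stalled forks activate Chek1, and was at 18.5, 18.8, 20.7 and 17.98 RPKM in wild type and 12.8, 13.4, 13.9 and 12.8 in the null-labelled libraries (-0.49 ± 0.05, adjusted p = 0.000190). After Cdca7 it had the smallest adjusted p of the members, and its groups stood clear of each other. Rad51ap1, a factor of homologous recombination, was at 15.01, 16.1, 16.5 and 15.8 RPKM in wild type and 10.6, 9.51, 12.03 and 10.7 RPKM under the null label (-0.53 ± 0.07, adjusted p = 0.000341). Blm, a helicase that resolves recombination intermediates, was at 18.3, 18.9, 17.9 and 16.5 RPKM in wild type and 12.3, 12.9, 13.9 and 12.9 RPKM under the null label (-0.43 ± 0.06, adjusted p = 0.000399). Neither gene had overlapping groups, and in Rad51ap1 the lowest library was 6 and not 5. Tipin, the partner of Timeless at the fork, fell from 45.2 to 36.5 RPKM (-0.30 ± 0.07, adjusted p = 0.00977). Dtl, which directs ubiquitination of Cdt1 in S phase, fell from 23.3 to 17.6 RPKM (-0.39 ± 0.06, adjusted p = 0.00150). Usp1, which removes ubiquitin from Pcna and Fancd2, fell from 40.5 to 30.7 RPKM (-0.39 ± 0.06, adjusted p = 0.00169). These regulators of fork proteins fell by amounts close to those of the helicase subunits.

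Among the remaining repair genes, Exo1, a nuclease, fell from 8.84 to 6.71 RPKM (-0.35 ± 0.06, adjusted p = 0.00310). Wdr76, a WD-repeat protein, fell from 11.01 to 8.02 RPKM (-0.41 ± 0.07, adjusted p = 0.00137). Brip1, a helicase that partners Brca1, had the lowest level per length of the members and fell from 3.55 ± 0.308 to 2.44 ± 0.132 RPKM (-0.40 ± 0.07, adjusted p = 0.00181). It did not pass in libraries 1, 2, 5 and 6 alone (adjusted p = 0.0581).

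Both cell cycle control members fell. Ccne2, a cyclin E gene that drives entry into S phase with Cdk2, was at 15.9, 14.9, 16.0 and 14.0 RPKM in wild type and 10.6, 9.69, 11.1 and 11.1 in the null-labelled libraries (-0.48 ± 0.06, adjusted p = 0.000391). Its exons share 609 bases with Ints8 on the opposite strand, which fell from 29.7 to 23.9 RPKM (-0.30 ± 0.08, adjusted p = 0.0198), a call lost in 3 alternatives. E2f8, an atypical E2F that represses S phase genes, was at 12.4, 11.5, 12.1 and 12.3 RPKM in wild type and 8.64, 9.14, 9.70 and 8.72 RPKM under the null label (-0.38 ± 0.05, adjusted p = 0.000473). An activating cyclin and a repressor of the same gene wave thus had lower levels in the same libraries, without overlap between genotypes. Of the other members, Mcm7, Cdc45 and Ubr7 also share exon bases with listed genes on the opposite strand, which makes 7 members in all. Their partners Cops6, Ufd1 and Gm20604 did not pass (adjusted p of 0.713, 0.617 and 0.771), whereas Ap4m1, which overlaps Mcm7, fell from 16.3 to 13.7 RPKM (-0.23 ± 0.05, adjusted p = 0.00583). E2f8, Slbp and Dscc1 share 610, 474 and 199 exon bases with Gm2788, Gm10459 and Gm41325, opposite-strand genes that are not listed.

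The members varied together from library to library. Null-labelled library 5 was the lowest of its genotype for 35 of 41 members (41.4% of all genes tested), and only 1 member exceeded its genotype mean there, by comparison with 37 members in library 11 and 37 in library 12. The median member deviated from its genotype mean by -9.32% in library 5, -1.38% in library 6, 5.32% in library 11 and 4.69% in library 12. Over all genes tested the median deviation in these libraries was -3.71%, -2.05%, 2.64% and 2.55%. In 30 members libraries 5 and 6 both lay below 11 and 12, an order shown by 45.5% of all genes tested. With RPKM sums made equal across libraries, 9 members kept that order (18.8% of genes), and library 5 was still the lowest for 28 (20.7% of genes). The summed members were then at 1283, 1379, 1365 and 1369.6 RPKM in libraries 5, 6, 11 and 12, with library 6 the highest. Among wild-type libraries, 7 was the highest for 26 members (20.4% of genes), and 39 members exceeded their genotype mean there. The numbers in the table also part the libraries into sets of 4, low and high in number, and members fell in both. The median was -0.45 in libraries 1, 2, 5 and 6, where the median of all genes was -0.07, and -0.31 in libraries 7, 8, 11 and 12, where it was 0.04. There 35 and 38 members were called lower, respectively, against 10.4% and 9.26% of genes tested in the same sets, and 0 rose in either, where 6.57% and 16.9% of genes were called higher.

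**Figure D3:**
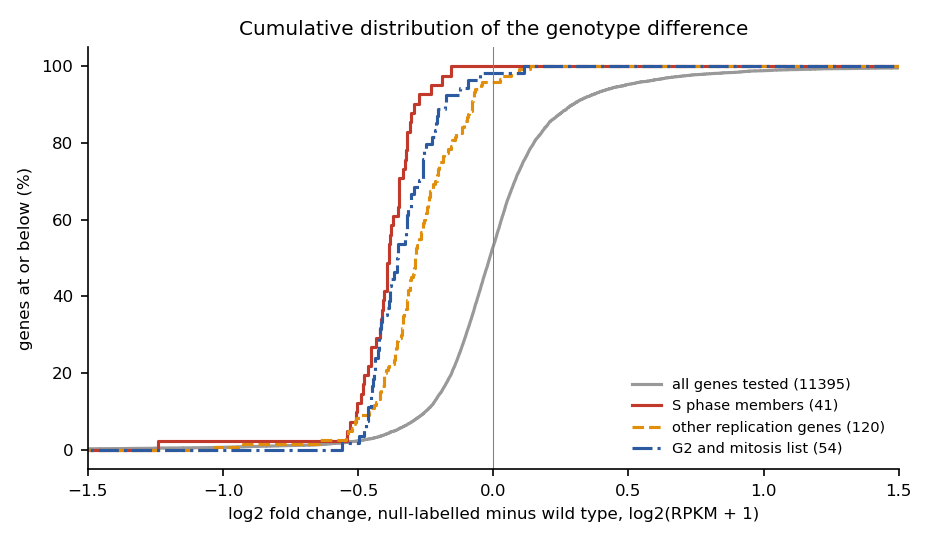
Cumulative share of genes (percent, y axis) against log2 fold change, null-labelled minus wild type, on the log2(RPKM + 1) scale (x axis), for the 41 members, 120 other replication genes, 54 G2 and mitosis genes and all 11395 genes tested. Every member lies left of 0, with medians of -0.39, -0.29, -0.36 and -0.01 in that order.

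Summed over the 41 members, the level was 1840.3, 1724, 1892 and 1742 RPKM in the wild-type and 1214, 1322, 1415 and 1418 RPKM in the null-labelled libraries. The null-labelled mean was 74.6% of the wild-type mean, and 75.4% with sums made equal, so this scaling hardly moved the size of the difference. Of the reads in listed genes, the members took 0.671% to 0.733% in each wild-type library and 0.483% to 0.534% in each null-labelled one. The G2 and mitosis genes, the set closest to the members in cell cycle use, fell in 48 of 54 cases and rose in 0 (limma voom also called 48 lower, and 50 were lower and 0 higher at an unadjusted p under 0.05), with a median of -0.36. By adjusted p the first of them were Ncapd2, a condensin subunit, from 64.8 to 46.4 RPKM (-0.47 ± 0.05, adjusted p = 0.000105), and Top2a, the topoisomerase that untangles sister DNA, from 202 to 137 RPKM (-0.56 ± 0.06, adjusted p = 0.000130). The summed level of the G2 and mitosis genes was 80.8% of wild type. Among all genes tested, 14.6% were called lower and 13.8% higher. The ratio of the summed members to the summed G2 and mitosis genes was 0.635, 0.638, 0.644 and 0.623 in wild type and 0.574, 0.586, 0.583 and 0.598 in the null-labelled libraries. These ranges did not overlap, but the ratio was not tested. Genes of high RPKM weigh most in both sums. By gene, the median log2 fold change was -0.39 in the members and -0.36 in the G2 and mitosis genes.

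**Figure D4:**
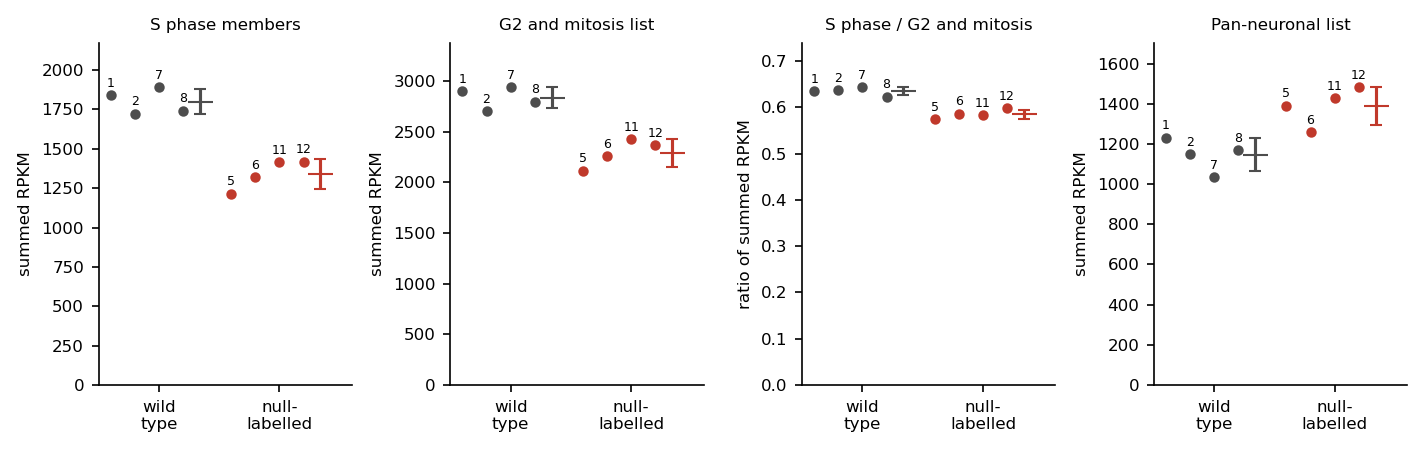
Summed RPKM per library (points, with the library number; bars show mean ± SD, n = 4) of the members, of the G2 and mitosis list and of the pan-neuronal list, and the ratio of the first 2 sums. The members lie at 1724 to 1892 in wild type and 1214 to 1418 under the null label, the ratio at 0.623 to 0.644 and 0.574 to 0.598, and the pan-neuronal sum at 1036 to 1232 and 1257 to 1483.

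Markers of other cell types and of progenitors also differed between the genotypes. For comparison, 14.6% of all genes tested fell and 13.8% rose. Of 11 pan-neuronal markers tested, 8 rose and 0 fell, with a median of 0.47 (0 fell at an unadjusted p under 0.05), and their sum lay at 1036 to 1232 RPKM in wild type and, under the null label, at 1257 to 1483 RPKM. Elavl4, a neuronal RNA-binding protein, rose from 35.8 to 59.8 RPKM (0.73 ± 0.07, adjusted p = 6.59e-05), and Tubb3, a neuronal tubulin, was at 553 and 588 RPKM (adjusted p = 0.469). Of 10 radial glia and progenitor markers, 4 fell and 4 rose, with a median of 0.20. Sox2 fell from 175 to 105 RPKM (-0.74 ± 0.06, adjusted p = 4.59e-05) and Vim rose from 488 to 585 RPKM (0.27 ± 0.08, adjusted p = 0.0347), a call lost in 7 alternatives. Among 6 intermediate progenitor markers 2 fell and 2 rose. The summed members were 1.11 to 1.28 times the summed progenitor markers in wild type and 0.758 to 0.815 times in the null-labelled libraries. Vim and Fabp7 weigh most in the progenitor sum, with 488 and 478 of its 1538 RPKM in wild type. Fabp7 did not pass, at 478 and 590 RPKM (adjusted p = 0.142). The ratio is thus not a level per progenitor cell, and it was not tested. Vascular markers fell in 3 of 8 cases, with sums of 36.0 to 42.7 and 28.5 to 38.3 RPKM. Microglia and erythroid markers passed in 0 of 5 cases each by limma (1 and 0 at an unadjusted p under 0.05), with sums of 8.27 to 10.4 and 9.18 to 13.0 RPKM for microglia and of 211 to 351 and 195 to 275 RPKM for erythroid genes. Of 6 dissociation and stress genes listed, 2 are in the table and 1 was tested. It was Jun, a transcription factor subunit induced by stress, which rose from 33.0 ± 1.40 to 42.7 ± 3.57 RPKM (0.36 ± 0.06, adjusted p = 0.00252), with every null-labelled library above every wild-type one, a call lost in 1 alternative. The 2 together summed to 31.4 to 34.5 RPKM in wild type and to 37.7 to 45.9 RPKM under the null label. No listed marker of any of these lists was at 0 in any library. The part of these shifts in the members' fall was not tested.

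Replication genes outside the members mostly fell too. Of 121 further genes listed by role, 120 were in the table and all 120 were tested: 88 fell, 0 rose and 32 did not pass, with a median of -0.29. At an unadjusted p under 0.05 by limma, 97 were lower and 0 higher, and voom called 91 lower and 0 higher. Among all genes tested, limma called 14.6% lower and 13.8% higher, and voom 14.8% and 14.3%. The share of all genes at the unadjusted threshold was not counted. In licensing 8 of 11 fell. Cdt1, the partner of Cdc6, went from 25.3 ± 0.736 to 17.3 ± 1.16 RPKM (-0.52 ± 0.05, adjusted p = 0.000114). Orc1, a subunit of the origin recognition complex, went from 3.46 ± 0.195 to 2.17 ± 0.260 RPKM (-0.50 ± 0.07, adjusted p = 0.000951). Orc3, Orc4 and Orc5 did not pass, at 10.3 and 9.45, 12.2 and 11.5, and 10.2 and 9.67 RPKM (adjusted p of 0.175, 0.321 and 0.433). The complex thus held both subunits that fell and subunits that did not pass. In helicase activation 8 of 11 fell, with Dbf4, the activator of the kinase Cdc7, going from 36.4 to 26.5 RPKM (-0.44 ± 0.06, adjusted p = 0.000545) and Cdc7 from 18.6 to 14.5 RPKM (-0.34 ± 0.05, adjusted p = 0.000716).

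Among replicative polymerases 6 of 9 fell. Pole, the catalytic subunit of the leading-strand polymerase, went from 15.4 to 11.2 RPKM (-0.43 ± 0.07, adjusted p = 0.00111) and Pola2, of the primase complex, from 18.5 to 13.7 RPKM (-0.40 ± 0.07, adjusted p = 0.00171). In clamp loading and unloading 5 of 8 fell, led by Atad5, which unloads Pcna, from 14.6 to 10.7 RPKM (-0.42 ± 0.05, adjusted p = 0.000207). The loader subunits Rfc3 and Rfc5 did not pass (adjusted p of 0.0535 and 0.0532), though they fell in 7 and 9 of the alternative fits, and Rfc1, the large subunit, fell from 23.4 to 18.6 RPKM (-0.31 ± 0.05, adjusted p = 0.00152). In lagging-strand processing 5 of 8 fell, with Dna2, a nuclease and helicase, from 12.2 to 8.29 RPKM (-0.51 ± 0.06, adjusted p = 0.000246) and Lig1, which seals fragments, from 54.4 to 42.9 RPKM (-0.33 ± 0.05, adjusted p = 0.00118).

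In nucleotide synthesis 15 of 18 fell. Shmt1, the cytosolic serine hydroxymethyltransferase, went from 18.1 to 11.2 RPKM (-0.64 ± 0.07, adjusted p = 0.000202), whereas its mitochondrial counterpart Shmt2 was at 26.3 and 28.2 RPKM (adjusted p = 0.216). Rrm2b, the reductase subunit used outside S phase, did not pass, at 2.36 and 2.70 RPKM (adjusted p = 0.141). Whether Rrm2 and Rrm2b differed in response was not tested. In chromatin copying 9 of 11 fell. Hat1, which acetylates new histones before assembly, had the most negative log2(RPKM + 1) fold change of the 120. It went from 93.2 ± 4.94 to 45.3 ± 5.50 RPKM (-1.03 ± 0.08, adjusted p = 2.35e-05). As a share of the wild-type mean E2f2 was lower, at 47.4% against 48.7% for Hat1. Dnmt1, the maintenance methyltransferase that Uhrf1 recruits, went from 70.4 to 58.9 RPKM (-0.25 ± 0.05, adjusted p = 0.00271). In the replication checkpoint 8 of 11 fell, with Chek1, the kinase that Clspn serves, from 18.3 to 13.1 RPKM (-0.45 ± 0.07, adjusted p = 0.00118) and Timeless from 22.1 to 17.0 RPKM (-0.37 ± 0.05, adjusted p = 0.000564). In fork repair 7 of 8 fell, among them Rad54l from 15.8 to 10.5 RPKM (-0.55 ± 0.07, adjusted p = 0.000299). In cohesion 4 of 7 fell, with Esco2, which acetylates cohesin in S phase, from 18.04 to 12.2 RPKM (-0.54 ± 0.08, adjusted p = 0.000688).

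The E2F family and its partners, which control the wave, mostly fell. Of 15 such genes 10 fell, 0 rose and 5 did not pass, with a median of -0.30 against -0.29 over all 120 genes. E2f2, an activator, was at 9.06, 8.19, 10.9 and 9.97 RPKM in wild type and 4.19, 4.52, 4.70 and 4.65 in the null-labelled libraries, and its mean went from 9.53 ± 1.16 to 4.52 ± 0.228 (-0.93 ± 0.08, adjusted p = 3.62e-05). E2f1, an activator as well, was at 19.2, 18.3, 22.6 and 21.5 RPKM in wild type and 18.00, 19.4, 19.7 and 19.9 RPKM under the null label, with overlapping groups (-0.07 ± 0.07, adjusted p = 0.453). The difference in response between E2f1 and E2f2 was not tested. E2f3 fell from 16.4 to 12.01 RPKM (-0.42 ± 0.06, adjusted p = 0.000832), the repressor E2f7 from 10.4 to 7.58 RPKM (-0.41 ± 0.05, adjusted p = 0.000472) and the Myb family activator Mybl2 from 10.7 to 7.23 RPKM (-0.51 ± 0.06, adjusted p = 0.000246). Rb1, the retinoblastoma protein that holds E2F factors in check, was at 25.8 and 26.4 RPKM (adjusted p = 0.625). All 3 S phase cyclin and kinase genes fell: Ccne1 went from 12.4 to 8.19 RPKM (-0.54 ± 0.09, adjusted p = 0.00157), Ccna2 from 107 to 79.99 RPKM (-0.42 ± 0.06, adjusted p = 0.000686) and Cdk2 from 28.7 to 23.3 RPKM (-0.29 ± 0.07, adjusted p = 0.0140).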

How the data were processed

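Polyadenylated RNA was sequenced after dUTP stranded library preparation, per the labels' protocols. STAR, featureCounts, edgeR and the build mm10 are named in the submitters' processing notes; versions, annotation and strand setting have no source (not given in the sources used here). Deposited by the authors was 1 table, which gives the RPKM of each library, their log2 fold change and average log2 CPM, and their p-value and FDR, per the file headers. Column names give the group (Germline was read as null, after the series title) and a number found in no label, so columns were assigned to groups and not to single samples. RPKM steps gave whole reads for 100% of genes (tolerance 1e-06 of a read), which set the depth and entered 1 alternative (limma voom).

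Genotype was fitted to log2(RPKM + 1) by limma (version 3.58.1, R 4.3.3) with an intensity trend; genes whose mean reached 1 RPKM in wild-type or null-labelled libraries were tested. RPKM is relative to each library, so a change in other RNAs also moves it. Alternatives were pseudocounts of 0.1 and 5, other filters, other scalings, voom, libraries 1, 2, 5 and 6 and libraries 7, 8, 11 and 12 apart and leaving out each library. The members and lists were chosen with earlier results of these data known. Values in every library are given for the 12 members with the smallest adjusted p, for Mcm2 to Mcm7, and for members that did not pass; Gins2, Ubr7, E2f1 and E2f2 were added after their values were seen. Other named genes come from the up to 4 with the smallest adjusted p of each replication and mitosis list, and from the 2 of highest mean RPKM and up to 2 of smallest adjusted p of each marker list. Gsx2 is named as the targeted gene. Named after their values were seen were Dlx1, Dlx2, Orc3, Orc4, Orc5, Rfc3, Rfc5, Rrm2b, Shmt2, E2f1, Rb1, overlapping genes and the neighbours of Cdca7. Coordinates are from GENCODE M21 (GRCm38).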

Additional observations from a re-analysis of the deposited data

Results flagged for a closer look

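In 10 of 298 groups of 4 libraries, 1 library lay apart from the other three by more than the critical ratio of Dixon's test, which chance alone exceeds in about 1 group in 20. Among the members, Mcm5 was at 39.9 RPKM in null-labelled library 5 against 47.3 to 47.9 in the other null-labelled libraries, and Mcm6 was at 40.3 RPKM there against 47.6 to 48.6. In null-labelled library 11 the ratio of summed members to summed progenitor markers was 0.758 against 0.806 to 0.815. Among other replication genes, Atad5 was at 15.5 RPKM in wild-type library 7 against 14.2 to 14.4, and E2f3 at 18.3 RPKM in the same library against 15.7 to 15.9. Shmt2 was at 24.3 RPKM in wild-type library 2 against 26.8 to 27.3. E2f7 was at 8.15 RPKM in null-labelled library 6 against 7.34 to 7.45. Among markers, Dll1 was at 29.0 RPKM and Gad1 at 27.1 RPKM in wild-type library 8, against 30.5 to 30.8 and 29.96 to 30.4. Kdr was at 4.86 RPKM in null-labelled library 5 against 5.48 to 5.61.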

How the results depend on the processing

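No paired analysis was possible because the columns carry no replicate numbers of the labels. Members called lower numbered 37 to 40 when 1 library at a time was left out, 39 to 41 under the other alternatives, and 35 and 38 within libraries 1, 2, 5 and 6 and libraries 7, 8, 11 and 12; 0 members were called higher in any of these. In 34 of the 40 called members the call held in all 20 alternatives where they were tested, and a mean RPKM of at least 5 left Brip1 untested. Other replication genes called lower numbered 78 to 89 with 1 library left out and 73 and 66 in these sets of 4, against 88. Over all genes, 3242 passed; with 1 library left out 2471 to 2954 passed, and in libraries 1, 2, 5 and 6 alone 1949 and in libraries 7, 8, 11 and 12 alone 2966; the cause was not tested. The median of the members ran from -0.41 to -0.34 with 1 library left out and from -0.40 to -0.32 under the other alternatives. No called result named here reversed. Among the named genes that are not members, calls were lost for Vim in 7 alternatives and for Ints8 in 3. They were also lost for Cdk2 and Kdr in 2 each and for Ap4m1 and Jun in 1 each. Calls were gained for Rfc5 in 9, Rfc3 in 7, Map3k20 in 3, Fabp7 in 2 and Pdk1 in 1.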

Other observations

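Cdca7 and Hat1 had the most negative log2(RPKM + 1) fold changes of the members and of the other replication genes, respectively. They start 1087 kb apart on chromosome 2, on either side of Dlx1 and Dlx2. This neighbourhood was looked at after those values were seen. Of 25 listed genes that reach into the 1.5 Mb on either side of the Cdca7 start (GRCm38), 24 were tested, 11 fell, 0 rose and 13 did not pass, with a median log2 fold change of -0.21. Cdca7 and Hat1, which prompted the look, are in those counts. Without them 9 of 22 fell, with a median of -0.14, and these 9 include Dlx1, Dlx2 and Sp9. Over all genes tested 14.6% were called lower and 13.8% higher, with a median of -0.01. Dlx1 went from 173 ± 11.3 to 16.1 ± 4.35 RPKM (-3.38 ± 0.15), Dlx2 from 137 ± 19.7 to 13.5 ± 4.60 RPKM (-3.31 ± 0.20) and Sp9 from 32.1 ± 4.07 to 4.65 ± 1.88 RPKM (-2.60 ± 0.21). These encode transcription factors of the ventral forebrain. Slc25a12, a mitochondrial aspartate-glutamate carrier, went from 29.2 ± 1.57 to 16.4 ± 0.588 RPKM (-0.80 ± 0.05, adjusted p = 5.81e-06), Mettl8 from 6.81 to 4.54 RPKM (-0.49 ± 0.06) and Ola1 from 32.4 to 24.4 RPKM (-0.40 ± 0.06). Between Dlx2 and Cdca7, Itga6 was at 13.0 and 12.9 RPKM (adjusted p = 0.911) and Pdk1 at 5.10 and 6.24 RPKM (adjusted p = 0.106), and neither passed. Map3k20, also between them, was at 2.03 and 1.56 RPKM (-0.24 ± 0.09, adjusted p = 0.0693); it did not pass, although every null-labelled library lay below every wild-type one. Rapgef4, the other listed gene there, was at 0.443 and 0.414 RPKM and was not tested.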
